A study of Homo sapiens with 6 samples.

Results

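CDT1 and geminin (GMNN) are the human genes whose degrons were fused to the tagged ribosomal proteins of this experiment, and the 10 genes described here are these 2, CDC6, and the ubiquitin ligase genes that act on their proteins in the cell cycle. The 10 were taken by gene symbol, and all 10 were among the 16834 genes of the deposited table. They are the licensing factors CDT1 and CDC6, the CDT1 inhibitor GMNN, the CRL4 ligase genes DTL, DDB1 and CUL4A, the SCF substrate receptor SKP2, the APC/C activators CDC20 and FZR1, and the APC/C inhibitor FBXO5.

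RNA was sequenced from 6 immunoprecipitates, 3 Flag-IPs and 3 HA-IPs, which were made from unsynchronised cultures of HEK293-T Flp-In, a human embryonic kidney line that the labels call epithelial-like. All 6 came from cells that stably expressed ccTaggedRP, 1 line in which a single copy of the construct had been recombined into the Flp-In site under a CAG promoter, kept in hygromycin with no drug to arrest the cycle. The construct encodes 1 polypeptide that is cut at a self-cleaving 2A site into Flag-RPL10a-hCdt, which carries CDT1 residues 30 to 120, and HA-RPL10a-hGem, which carries geminin residues 1 to 110. Flag-RPL10a-hCdt was predicted to be lost from late S phase to mitosis and HA-RPL10a-hGem from late G1 to early S phase. In the paper's Western blots of drug-synchronised and serum-starved cells, the 2 proteins changed in opposite directions, Flag-RPL10a-hCdt being higher in G1. The comparison thus asks which mRNAs were bound to ribosomes bearing one tag or the other. The ribosomal protein part is a mouse cDNA, no input RNA was analysed here, and nothing in the sources used here says that the replicates were separate cultures, so that the p-values measure the spread between these libraries, which may be technical.

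Origins of replication are licensed in G1, when the origin recognition complex and CDC6 recruit CDT1 with the MCM helicase. Relicensing in S and G2 is prevented by geminin, which binds CDT1, and by degradation of CDT1 through CRL4-DTL, which reads CDT1 on chromatin-bound PCNA, and through SCF-SKP2, which reads the phosphorylated protein. Geminin itself is degraded by the APC/C from anaphase to the end of G1. The paper states a different window, late G1 to early S phase, for HA-RPL10a-hGem. All of these switches act on proteins, while the libraries measure mRNA in the immunoprecipitates.

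The coding sequences behind the degrons are shown because the Flag and HA proteins differ by them. The first 29 codons of CDT1, at chr16:88803832-88803918 on the plus strand of GRCh38 (GENCODE release 44), lie in exon 1 and outside the construct; capitals mark codons 3 to 10, the PCNA-binding box through which CRL4-DTL recognises CDT1. Codons 30 to 120 are the part in the construct and run over 3 coding pieces, chr16:88803919-88804059, chr16:88804545-88804667 and chr16:88804762-88804770. In it, capitals mark codons 68 to 70, the cyclin-binding motif that precedes recognition by SKP2. Geminin codons 1 to 60, part of the stretch in the construct, lie at chr6:24777247-24777297, chr6:24780663-24780740 and chr6:24781477-24781527 on the plus strand, with the destruction box of codons 23 to 26 in capitals.
CDT1 codons 1 to 29: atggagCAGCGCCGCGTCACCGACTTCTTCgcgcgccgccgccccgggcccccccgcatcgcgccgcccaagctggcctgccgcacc
CDT1 codons 30 to 120: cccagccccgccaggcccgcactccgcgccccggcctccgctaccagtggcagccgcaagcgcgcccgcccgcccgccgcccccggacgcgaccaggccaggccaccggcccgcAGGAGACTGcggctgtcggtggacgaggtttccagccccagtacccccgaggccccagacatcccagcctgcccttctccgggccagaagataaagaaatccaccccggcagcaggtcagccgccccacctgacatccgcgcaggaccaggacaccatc
GMNN codons 1 to 60: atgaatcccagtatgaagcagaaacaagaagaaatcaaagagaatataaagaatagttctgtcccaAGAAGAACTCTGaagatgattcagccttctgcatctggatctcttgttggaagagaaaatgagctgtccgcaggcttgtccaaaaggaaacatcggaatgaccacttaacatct
The construct thus held the cyclin-binding motif of CDT1 and not its PCNA-binding box, and it held the destruction box of geminin. It carried 91 of the 546 codons of CDT1 (16.7%), equal to 10.2% of the length of the annotated transcript, and 110 of the 209 codons of GMNN (52.6%), equal to 26.1% of the transcript. The paper's methods also write the geminin part as starting at residue 10, and the GMNN figures here take the form that starts at residue 1. Reads from the construct's own mRNA over these stretches would map to CDT1 and GMNN, and the table does not separate them, so the values of these 2 genes can hold reads of both sources. How many was not tested.

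E2F sites and CHR elements are promoter motifs known from genes that peak at the start of S phase and in G2 and mitosis. The promoters below are shown because they hold a motif of this kind. They are 220 bases each (200 before to 20 after the RefSeq start, GRCh38.p14), read on the gene's strand, taken from RefSeq windows of 250 bases before to 50 after a start. All 10 genes had such windows, 16 in total. The E2F motif TTTGGCGC, searched on both strands, was found in windows of 3 of the 10 genes, GMNN, CDC6 and DTL, and in 0.652% of all 35116 promoters. The E2F motif TTTCGCGC was found in none of the 10 genes and in 0.515% of all promoters. The CHR motif TTTGAA was found in windows of CDC20, FZR1 and FBXO5 and in 15.2% of all promoters. These shares are of single promoters, while the 10 genes had 16 windows, so a count of genes and a share of promoters are not like measures. No match overlapped a match of another motif. Capitals mark each match in the promoters printed, with TTCAAA as the reverse complement of TTTGAA, and the promoters of FZR1 and FBXO5 are not printed.
GMNN promoter, chr6:24775213-24775432, plus strand: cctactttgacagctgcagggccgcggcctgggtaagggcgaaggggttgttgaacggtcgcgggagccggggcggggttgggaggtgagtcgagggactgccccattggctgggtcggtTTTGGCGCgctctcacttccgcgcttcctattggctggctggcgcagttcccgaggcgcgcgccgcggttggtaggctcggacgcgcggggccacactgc
CDC6 promoter, chr17:40287679-40287898, plus strand: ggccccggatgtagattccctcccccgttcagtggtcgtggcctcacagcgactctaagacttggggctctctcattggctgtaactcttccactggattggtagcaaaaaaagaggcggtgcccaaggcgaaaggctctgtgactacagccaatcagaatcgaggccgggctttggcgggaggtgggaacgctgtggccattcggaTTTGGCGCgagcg
DTL promoter, chr1:212035548-212035767, plus strand: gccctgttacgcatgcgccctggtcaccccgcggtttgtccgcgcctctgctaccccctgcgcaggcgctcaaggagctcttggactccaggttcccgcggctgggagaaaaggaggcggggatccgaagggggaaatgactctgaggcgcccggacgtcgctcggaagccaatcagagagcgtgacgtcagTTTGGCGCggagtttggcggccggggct
CDC20 promoter, chr1:43358781-43359000, plus strand: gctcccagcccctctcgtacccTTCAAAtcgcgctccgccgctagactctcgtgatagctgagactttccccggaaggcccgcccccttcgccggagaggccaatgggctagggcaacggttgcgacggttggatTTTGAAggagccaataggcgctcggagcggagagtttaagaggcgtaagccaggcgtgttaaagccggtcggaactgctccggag
The E2F letters began 80 bases before the start in GMNN and 8 bases before it in DTL, and within the transcript at base 8 in CDC6. The CHR letters of CDC20 began 65 and 178 bases before its start, and those of FBXO5, on the other strand, 40 bases before. CDC6 and DTL were called higher in the HA-IPs and GMNN was not, so the 3 genes with the E2F letters did not share a call. A match describes letters and not a bound factor, and ribosome-bound mRNA does not measure promoter activity.

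The libraries held 23174532 to 44134833 reads on the listed genes, and each of the 10 genes had between 1220 and 52263 reads in every library. Values are normalized counts, reads that the authors divided by 1 size factor per library (0.770 to 1.42). The cells' label was checked against marker lists. Of 6 epithelial markers all were in the table, with KRT8 at 9904 to 11240.0 normalized counts over the 6 libraries and CLDN4 between 10.1 and 14.9. Of these 6, EPCAM (2990.1 to 3248 in the Flag-IPs and 3829.6 to 4102 in the HA-IPs; log2 difference 0.34, limma adjusted p = 0.00294) and CDH1, the E-cadherin gene (log2 difference 0.29, limma adjusted p = 0.0170), passed the test with higher values in the HA-IPs, and the other 4 did not pass. Of 7 embryonic kidney markers, PAX8 was at 24.9 to 44.2 in the Flag-IPs against 0 to 4.41 in the HA-IPs, and only 4 of 9 mature nephron markers were in the table. Heart muscle genes differed in the other direction. Of 30 markers 24 were in the table, and all 24 were called with higher values in the Flag-IPs, beside 7.1% of all genes. Each listed gene had at least 10 reads in at least 3 libraries. A gene near 0 in the HA-IPs, such as PAX8 or the heart gene CASQ2 (0.706 to 3.31 there), could thus be listed only through the Flag-IPs. The direction of such genes was fixed in advance. The summed heart markers took 0.333 to 0.716% of the counts in the Flag-IPs. In the HA-IPs they took 0.00709 to 0.0646%, with HA-IP replicate 3 the highest HA-IP. The defining heart gene MYH7 was at 42902 to 83895 normalized counts in the Flag-IPs and at 478 to 6766 in the HA-IPs. Over all genes, transcripts called higher in the HA-IPs were longer (median 4527 nt) than those called higher in the Flag-IPs (median 1930.5 nt) or not called (median 2970 nt). The part of the epithelial genes, of the heart muscle RNA and of transcript length in the results below was not tested beyond the removal of length and GC trends.

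Of the 10 genes, 6 were higher in the HA-IPs, where HA-RPL10a-hGem was precipitated, and 0 had higher values in the Flag-IPs that passed the test. The 6 were the APC/C activators CDC20 and FZR1, all 3 CRL4 genes (DTL, DDB1, CUL4A) and the licensing factor CDC6. The differences were small, from 1.14- to 1.21-fold. CDT1, GMNN, SKP2 and FBXO5 did not pass the test, and their groups overlapped. Each gene was tested in limma on log2(normalized counts + 1) with the Benjamini-Hochberg adjustment over all genes, at an adjusted p of at most 0.05, and differences are HA-IP minus Flag-IP on that scale. The background was 5.79% of all genes called higher in the HA-IPs and 7.1% called higher in the Flag-IPs, and the median difference was 0.20 over the 10 genes and -0.0049 over all genes. This background is not matched for level. The median level was 3797 normalized counts in genes called higher in the HA-IPs and 404 in genes not called, and the 10 genes had means of 1472 to 34255. A background of genes of like level was not tested. No gene of the 10 was higher in the Flag-IPs at an unadjusted p under 0.05 or in edgeR or DESeq2. In the 6 called genes all HA-IPs lay above all Flag-IPs, as in 16.1% of all genes. Of all called genes, 44.9% were higher in the HA-IPs, and this share was 23.0% with the same total per library, where 4 of the 10 genes were called. Without Flag-IP replicate 2 the test called 0 of the 10 (adjusted p 0.053 to 0.14 for the 6, in limma), although 6 had an unadjusted p under 0.05, and it called 4 without HA-IP replicate 1, 2 or 3, losing CUL4A and FZR1.

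**Figure D1:**
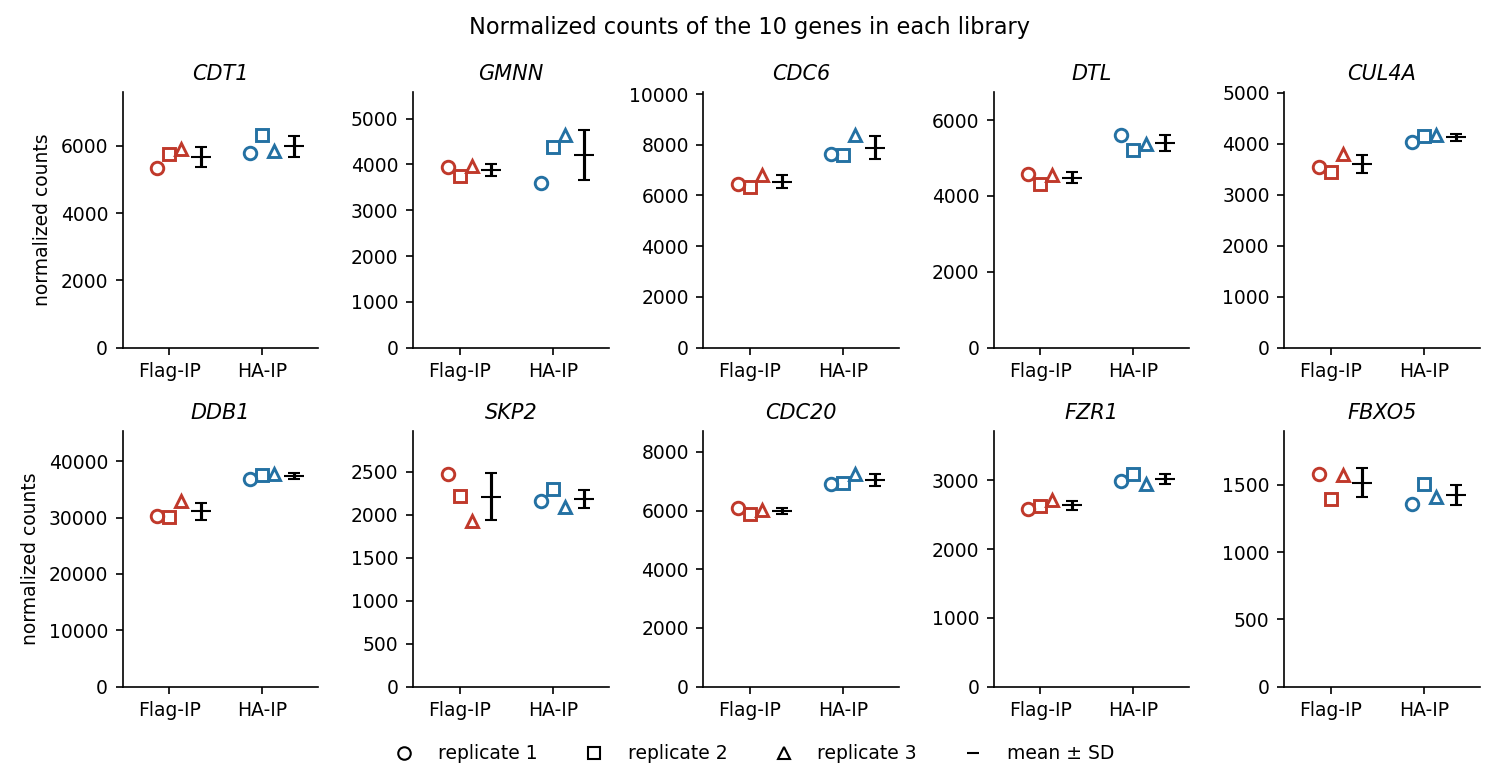
Normalized counts (y axis, from 0) of the 10 genes in the 3 Flag-IPs (red) and 3 HA-IPs (blue), 1 symbol per replicate, with the mean and SD in black. The HA-IPs lie above the Flag-IPs in CDC6, DTL, CUL4A, DDB1, CDC20 and FZR1, and the groups overlap in CDT1, GMNN, SKP2 and FBXO5.

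CDT1 (ENSG00000167513, chr16:88803789-88809258, plus strand), which loads the MCM helicase at origins, was at 5336, 5765.5 and 5897 normalized counts in the Flag-IPs (replicates 1, 2 and 3) and at 5779.8, 6336 and 5846 in the HA-IPs. The ranges overlapped, and 2 of the 3 HA-IPs lay between the Flag-IPs. The means were 5666 ± 293 for the Flag-IPs against 5987 ± 303 for the HA-IPs (SD, n = 3 each). The log2 difference was 0.080 (SE 0.056; 95% interval -0.042 to 0.20; limma adjusted p = 0.401), which allows a fold from 0.971 to 1.15. CDT1 thus shared the direction of the called genes without passing the test, under the main setting and under all 17 alternatives.

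GMNN (ENSG00000112312, chr6:24774931-24786099, plus strand) was at 3952, 3739 and 3972 normalized counts in the Flag-IPs and at 3603, 4373 and 4652 in the HA-IPs. HA-IP replicate 1 was the lowest of all 6 libraries and replicates 2 and 3 were the highest, so that the SD was 543 in the HA-IPs against 129 in the Flag-IPs. The log2 difference was 0.11 (SE 0.081; 95% interval -0.070 to 0.28; limma adjusted p = 0.440). It ranged from 0.031 to 0.21 when 1 library was left out. With the trends of GC content and transcript length removed per library, GMNN was 0.24 higher in the HA-IPs (limma adjusted p = 0.0317), the only setting of 17 alternatives to call it. GMNN has the shortest annotated transcript of the 10 genes, 1263 nt.

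CDC6 (ENSG00000094804, chr17:40287879-40304657, plus strand), the ATPase that works with CDT1 at origins and is itself a target of APC/C, was at 6444, 6347 and 6826.5 normalized counts in the Flag-IPs and at 7641, 7612 and 8400.3 in the HA-IPs. The lowest HA-IP lay above the highest Flag-IP. The log2 difference was 0.27 (SE 0.054; limma adjusted p = 0.00922), a fold of 1.21 (95% interval 1.11 to 1.31).

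The 3 genes of the CRL4-DTL ligase all passed the test. DTL (ENSG00000143476, chr1:212035553-212107400, plus strand), the substrate receptor that binds CDT1 on PCNA, was at 4588, 4309.8 and 4540.0 normalized counts in the Flag-IPs and at 5615, 5211.5 and 5361 in the HA-IPs. Its log2 difference of 0.27 (SE 0.050; limma adjusted p = 0.00652) had the smallest adjusted p of the 10. DDB1 (ENSG00000167986, chr11:61299451-61342596, minus strand), the adaptor between CUL4 and its receptors, was at 30238, 30167 and 32907 in the Flag-IPs and at 36879, 37522 and 37817 in the HA-IPs. All 3 HA-IPs lay within a narrow band, 1.28% of their mean as SD, above the highest Flag-IP. Its log2 difference was 0.27 (SE 0.051; limma adjusted p = 0.00725), and under quantile normalization it fell to 0.091 (limma adjusted p = 0.150). CUL4A (ENSG00000139842, chr13:113208193-113267108, plus strand), the scaffold, was at 3540.2, 3454 and 3788 in the Flag-IPs and at 4037, 4153 and 4177 in the HA-IPs. Its log2 difference was 0.20 (SE 0.051; limma adjusted p = 0.0268), with adjusted p-values of 0.0552 under quantile normalization and 0.0659 with the same total per library. CUL4A shares 5.59% of its exon bases with the opposite-strand gene PCID2 and DDB1 shares 3.18% with TKFC, and no strand setting of the counting is given in the sources used here.

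SKP2 (ENSG00000145604, chr5:36151989-36196849, plus strand), the SCF receptor for CDT1 phosphorylated after the start of S phase, was at 2478, 2216 and 1932 normalized counts in the Flag-IPs and at 2161, 2294 and 2089.6 in the HA-IPs. The Flag-IPs held both the highest and the lowest library. The log2 difference was -0.012 (SE 0.081; 95% interval -0.19 to 0.17; limma adjusted p = 0.948), and its sign turned to 0.075 without Flag-IP replicate 1 and to 0.019 without HA-IP replicate 3. SKP2 had the largest spread of the 10 in the Flag-IPs, 12.4% of the mean.

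Both APC/C activators were higher in the HA-IPs. CDC20 (ENSG00000117399, chr1:43358981-43363203, plus strand), which activates the APC/C from metaphase, was at 6083, 5891 and 6011 normalized counts in the Flag-IPs and at 6905, 6953 and 7260.1 in the HA-IPs. Its log2 difference was 0.23 (SE 0.045; limma adjusted p = 0.00840). FZR1 (ENSG00000105325, chr19:3506311-3538334, plus strand), also called CDH1, which keeps the APC/C active in G1 and targets geminin, was at 2580.4, 2627.5 and 2712 in the Flag-IPs and at 2996, 3098 and 2952 in the HA-IPs. The groups did not overlap, and the log2 difference was 0.19 (SE 0.049; limma adjusted p = 0.0269). It was 0.14 with the same total per library (limma adjusted p = 0.0863) and 0.12 with GC and length trends removed (limma adjusted p = 0.170). Both of these settings ended its call.

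FBXO5 (ENSG00000112029, chr6:152970519-152983579, minus strand), or EMI1, which holds the APC/C off in S and G2 phase, was at 1584, 1393 and 1571 normalized counts in the Flag-IPs and at 1362, 1509 and 1411 in the HA-IPs. Flag-IP replicate 2 lay below HA-IP replicates 2 and 3, so that the groups overlapped. The log2 difference was -0.086 (SE 0.068; 95% interval -0.23 to 0.064; limma adjusted p = 0.467), the lowest of the 10 genes. FBXO5 was below 0 under the main setting and all 17 alternatives without passing the test in any.

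**Figure D2:**
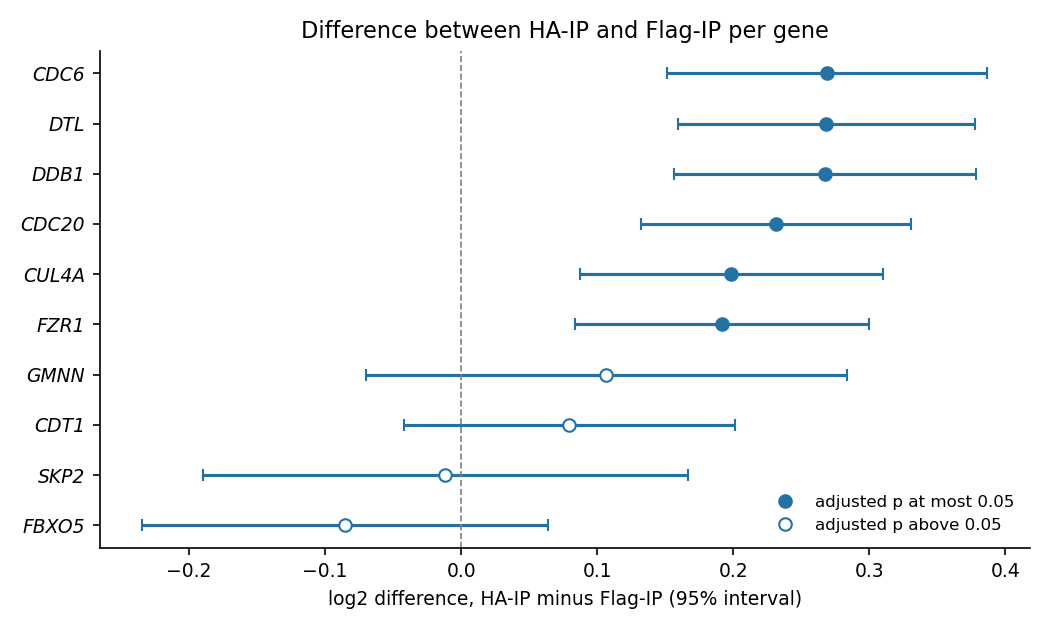
Log2 difference between HA-IPs and Flag-IPs (x axis, points) of each of the 10 genes with its 95% interval (bars), ordered by size, filled where the adjusted p was at most 0.05. The 6 filled genes lie between 0.19 and 0.27, and the intervals of GMNN, CDT1, SKP2 and FBXO5 cross 0.

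Per kilobase of annotated transcript, the levels of the 10 genes over the 6 libraries were ordered from DDB1 to FZR1. DDB1 was at 8069 ± 849 normalized counts per kb (SD over 6 libraries), above CDC20 at 3952 ± 357, GMNN at 3205 ± 313, CDT1 at 2187 ± 119.98, CDC6 at 1580.2 ± 176 and DTL at 1119.9 ± 119.5. The lowest 4 were FBXO5 at 717 ± 46.6, CUL4A at 663 ± 53.8, SKP2 at 591 ± 49.8 and FZR1 at 546 ± 41.6. Neighbours in this order overlapped in range for CDC20 and GMNN, and for each step from FBXO5 through CUL4A and SKP2 to FZR1. From GMNN to FBXO5 each gene's lowest library lay above the next gene's highest. DDB1 was above CDC20 in the same way. The levels of CDT1 and GMNN can include reads of the construct's mRNA, so their places in the order may not be those of the cells' own genes alone.

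Ratios of 2 genes within a library do not depend on its size factor, and 5 were compared. The ratio of GMNN to CDT1 was 0.741, 0.648 and 0.674 in the Flag-IPs, and in the HA-IPs it was 0.623, 0.690 and 0.796. The groups overlapped, and the log2 ratio differed by 0.027 (exact permutation test, two-sided, p = 0.9, adjusted over the 5 ratios 0.9). With GC and length trends removed the difference was 0.22 (exact permutation test, p = 0.2). Reads of the construct's mRNA can be part of the GMNN and CDT1 values in this and any other ratio. The ratio of the APC/C inhibitor FBXO5 to the activator FZR1 was 0.614, 0.530 and 0.579 in the Flag-IPs, and in the HA-IPs it was 0.455, 0.487 and 0.478. Its groups did not overlap, and the log2 ratio differed by -0.28, at the smallest p that 3 against 3 libraries allow (exact permutation test, p = 0.1, adjusted 0.333). With GC and length trends removed it differed by -0.17 (exact permutation test, p = 0.3). The ratio of SKP2 to DTL, the receptors of the SCF and CRL4 ligases for CDT1, differed by -0.28 (exact permutation test, p = 0.2, adjusted 0.333), and that of CDC6 to CDT1 by 0.19 (exact permutation test, p = 0.2, adjusted 0.333). The ratio of CDC20 to FZR1 lay between 2.22 and 2.46 in all 6 libraries and differed by 0.040 (exact permutation test, p = 0.5, adjusted 0.625). With GC and length trends removed it differed by 0.20 (exact permutation test, p = 0.1, the smallest possible). None of the 5 ratios could pass 0.05 in this design.

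**Figure D3:**
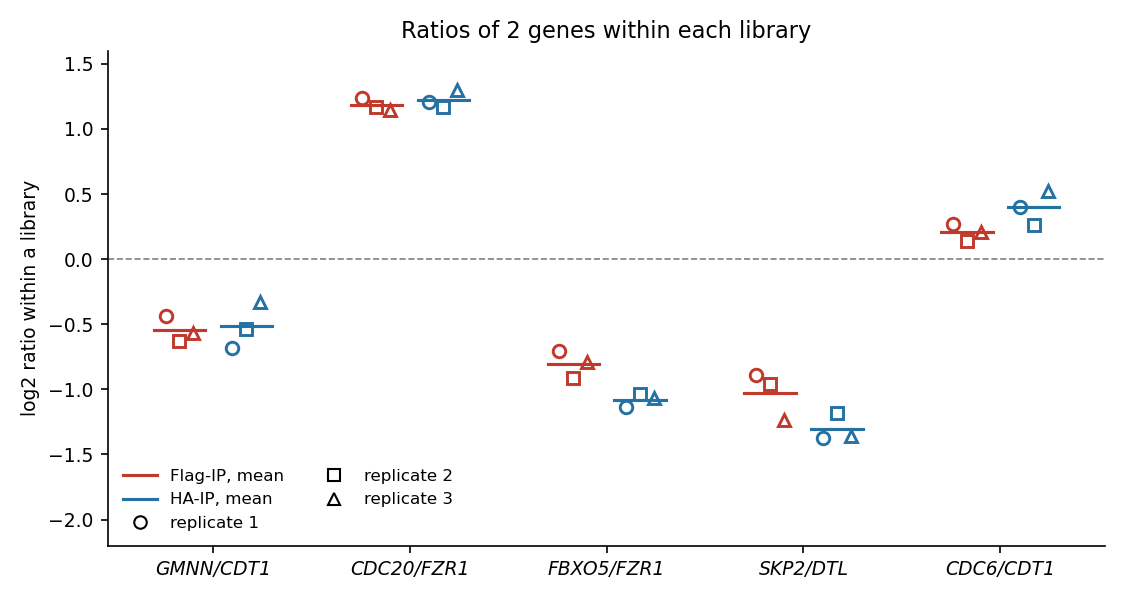
Log2 ratio of the normalized counts of 2 genes within a library (y axis) for 5 pairs (x axis), with 1 symbol per replicate in the Flag-IPs (red) and HA-IPs (blue) and lines at the means. The groups overlap in 4 of the 5 pairs and are apart in FBXO5/FZR1.

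The genes whose profile over the 6 libraries was most like that of CDT1, among 11634 genes with a symbol and a mean of at least 100 normalized counts, were JUP, PPP1R26 and ARHGAP35. Their root mean square difference from the centred log2 values of CDT1 was 0.016, 0.019 and 0.020, beside a spread of 0.072 in CDT1 itself. For GMNN they were HNRNPA2B1 at 0.015, HNRNPH3 at 0.031 and HDAC8 at 0.044, beside a spread of 0.13 in GMNN. HNRNPA2B1, an RNA-binding protein gene, was also lowest in HA-IP replicate 1 (43891 normalized counts) and highest in HA-IP replicate 3 (57408).

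Other genes of the same pathways were described from lists of 82 genes, of which 81 were in the table. Among the 81, the test called 13 higher in the HA-IPs (16.05%; 5.79% among all genes) and 10 higher in the Flag-IPs (12.3%; 7.1% among all genes), with a median difference of 0.051. A gene in more than 1 list was counted once. The shares among all genes are not matched for level, here or in the lists below.

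Licensing partners of CDT1 and CDC6 that passed the test shared the direction of CDC6. Of 12 genes, 6 were higher in the HA-IPs, beside 5.79% of all genes. A background of genes of like level was not tested for this list either. None was higher in the Flag-IPs, where no gene had an unadjusted p under 0.05 and neither edgeR nor DESeq2 called any. The 6 were ORC1, a subunit of the origin recognition complex, and the helicase genes MCM2, MCM3, MCM4, MCM5 and MCM6, with log2 differences from 0.18 to 0.26 and a list median of 0.17. MCM2 was at 20159, 21209.6 and 22475 normalized counts in the Flag-IPs and at 25819.9, 25503 and 25212 in the HA-IPs (log2 difference 0.26, limma adjusted p = 0.00798). ORC1 was at 2578, 2567 and 2717 in the Flag-IPs and at 2969, 3029 and 3188 in the HA-IPs (log2 difference 0.22, limma adjusted p = 0.0172). MCM7 was at 0.15 (limma adjusted p = 0.0618; 0.0334 with GC and length trends removed), and ORC2, the lowest of the list, at -0.0092. Under quantile normalization the differences of the 5 called MCM genes were 0.11 to 0.15, and 4 of them no longer passed, with adjusted p-values in limma of 0.0542 for MCM2, 0.05002 for MCM4, 0.0836 for MCM5 and 0.102 for MCM6.

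Subunits shared among cullin ligases moved in both directions. RBX1, the RING subunit that both CRL4 and SCF ligases need, was at 1103, 868 and 771 normalized counts in the Flag-IPs and at 468, 511 and 654 in the HA-IPs. Its groups did not overlap, and its log2 difference of -0.75 (SE 0.14; limma adjusted p = 0.00690) was the lowest of the 81 genes. SKP1, the SCF adaptor, was also higher in the Flag-IPs (log2 difference -0.41, limma adjusted p = 0.0252), while CUL1, the SCF scaffold, was higher in the HA-IPs (0.16, limma adjusted p = 0.0319; 0.0967 under quantile normalization). In the CRL4 list none of CUL4B, PCNA and DDB2 passed the test, and DDB2 had the highest difference, 0.13. No gene of that list was higher in the HA-IPs at an unadjusted p under 0.05 or in edgeR or DESeq2. With GC and length trends removed, PCNA, the sliding clamp, went from 0.067 to 0.20 and was called (limma adjusted p = 0.0183). Of 15 genes for cullin neddylation and exchange, 1 was higher in the HA-IPs, beside 5.79% of all genes. It was CAND1, which exchanges substrate receptors (0.31, limma adjusted p = 0.00993). The neddylation gene DCUN1D1 (-0.59) and the COP9 signalosome genes COPS2 (-0.61) and COPS6 (-0.42) were higher in the Flag-IPs, beside 7.1% of all genes. These 3 kept an adjusted p of at most 0.05 with GC and length trends removed, as did RBX1 at -0.61 and SKP1 at -0.46.

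Among 14 APC/C core subunits, 1 was higher in the HA-IPs, beside 5.79% of all genes, and the list median was -0.0046. It was ANAPC1, the largest subunit (0.19, limma adjusted p = 0.0241). Another 3 were higher in the Flag-IPs, beside 7.1% of all genes, and the other 10 did not pass. The 3 were the small subunits ANAPC11, the RING protein (-0.34), ANAPC13 (-0.38) and ANAPC16 (-0.45). With GC and length trends removed, ANAPC16 stayed called at -0.46 while ANAPC11 was at -0.12 (limma adjusted p = 0.339) and ANAPC13 at -0.23 (limma adjusted p = 0.201). ANAPC1 also lost its call there, at 0.13 (limma adjusted p = 0.0571), and under quantile normalization, at 0.12 (limma adjusted p = 0.0920), where ANAPC13 was at -0.33 (limma adjusted p = 0.0844). Of the ubiquitin-conjugating enzymes that serve the APC/C, UBE2S, which extends chains, was at 4674, 5206 and 6544 normalized counts in the Flag-IPs and at 8322, 8452 and 6683 in the HA-IPs. Its log2 difference of 0.52 (limma adjusted p = 0.0138) was the highest of the 81 genes, although HA-IP replicate 3 lay just above Flag-IP replicate 3. UBE2D1 was higher in the Flag-IPs (-0.53, limma adjusted p = 0.00906). Of the 5 genes of the mitotic checkpoint complex, which holds CDC20 inactive, and its disassembly, BUB1B was higher in the HA-IPs (0.23, limma adjusted p = 0.0173), and MAD2L1BP had the lowest difference, -0.16, without passing the test.

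Among other substrates of the same ligases, TDG, a DNA glycosylase degraded through CRL4-DTL, was higher in the HA-IPs (0.23, limma adjusted p = 0.0151), and CDKN1A, the CDK inhibitor p21 and another CRL4-DTL substrate, was higher in the Flag-IPs. CDKN1A was at 2106, 2109 and 2029 normalized counts in the Flag-IPs and at 1662, 1711 and 1526 in the HA-IPs, so its groups stood clear of each other (log2 difference -0.35, limma adjusted p = 0.00390). Of 4 SKP2 substrates only ORC1 passed, CDKN1B was at 0.11, and CDKN1C, the highest at 0.52, had 13.8 to 30.7 normalized counts and an adjusted p of 0.347 in limma. Of 11 APC/C substrates 1 was higher in the HA-IPs, beside 5.79% of all genes. It was CCNB1, cyclin B1 (0.20, limma adjusted p = 0.0226; 0.0697 under quantile normalization), and PTTG1, securin, had the lowest difference, -0.13. With GC and length trends removed, AURKB, the Aurora B kinase, went from 0.16 (limma adjusted p = 0.0674) to 0.30 (limma adjusted p = 0.000709). None of the 7 regulators of the turnover of the 10 genes' proteins passed in limma, edgeR or DESeq2, with differences from -0.074 in FBXW11 to 0.13 in FBXO11, and 1 gene had an unadjusted p under 0.05. Of the geminin family, MCIDAS was at 288 to 317 normalized counts in all 6 libraries with a difference of -0.027 (limma adjusted p = 0.889).

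**Figure D4:**
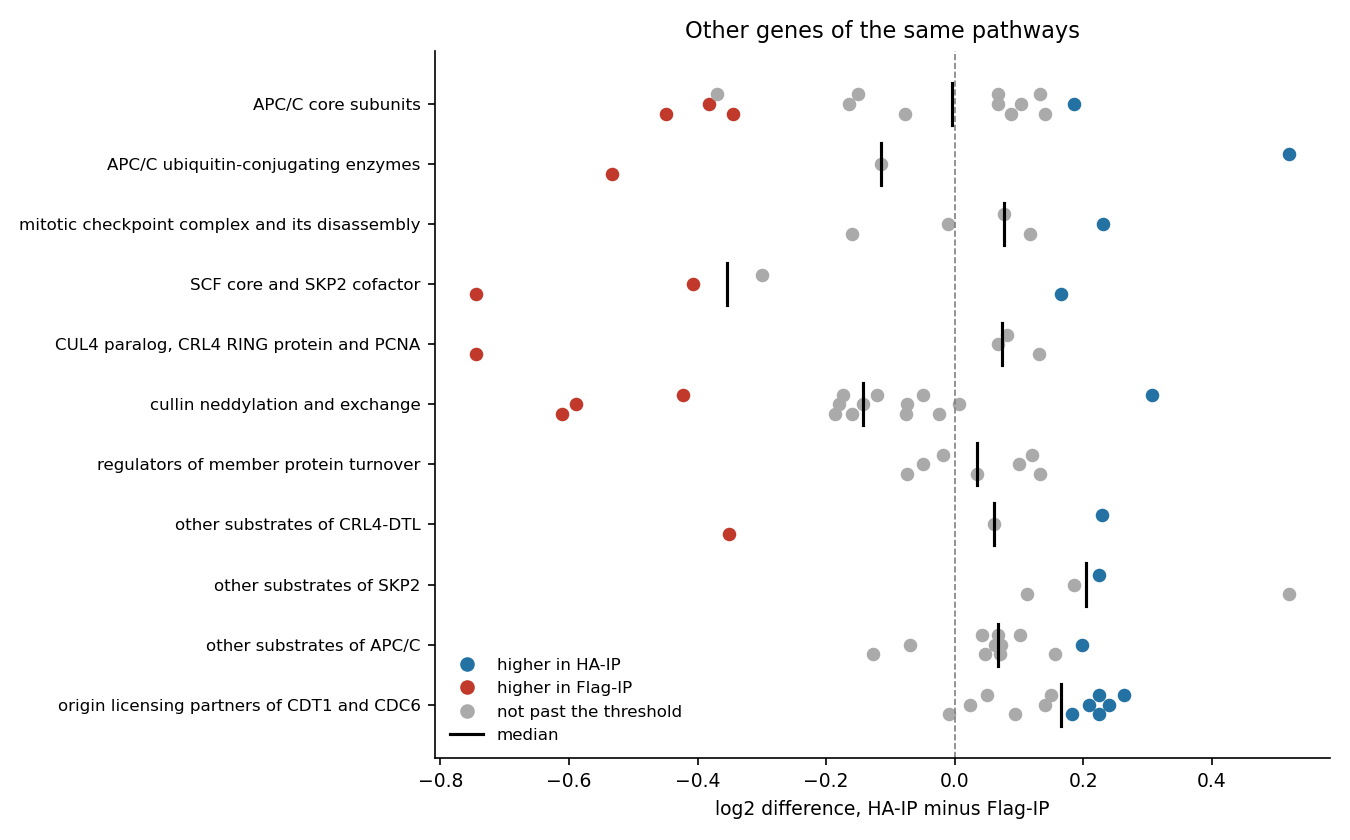
Log2 difference between HA-IPs and Flag-IPs (x axis) of the other genes of the pathways, 1 point per gene and 1 row per list (y axis), coloured by the call at an adjusted p of at most 0.05, with the median of a list as a black line. RBX1, at -0.75, is the lowest point and stands in 2 lists. Of the 12 licensing genes 6 are higher in the HA-IPs, beside 5.79% of all genes, which are not matched for level.

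In bulk immunoprecipitates, a difference in mRNA level per cell, in the share of cells bearing a tag and in how many ribosomes an mRNA carried cannot be told apart. This holds for each of the 10 genes. The 6 libraries hold no immunoprecipitate from cells without the tags, so RNA not bound to tagged ribosomes was not measured.

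**Figure D5:**
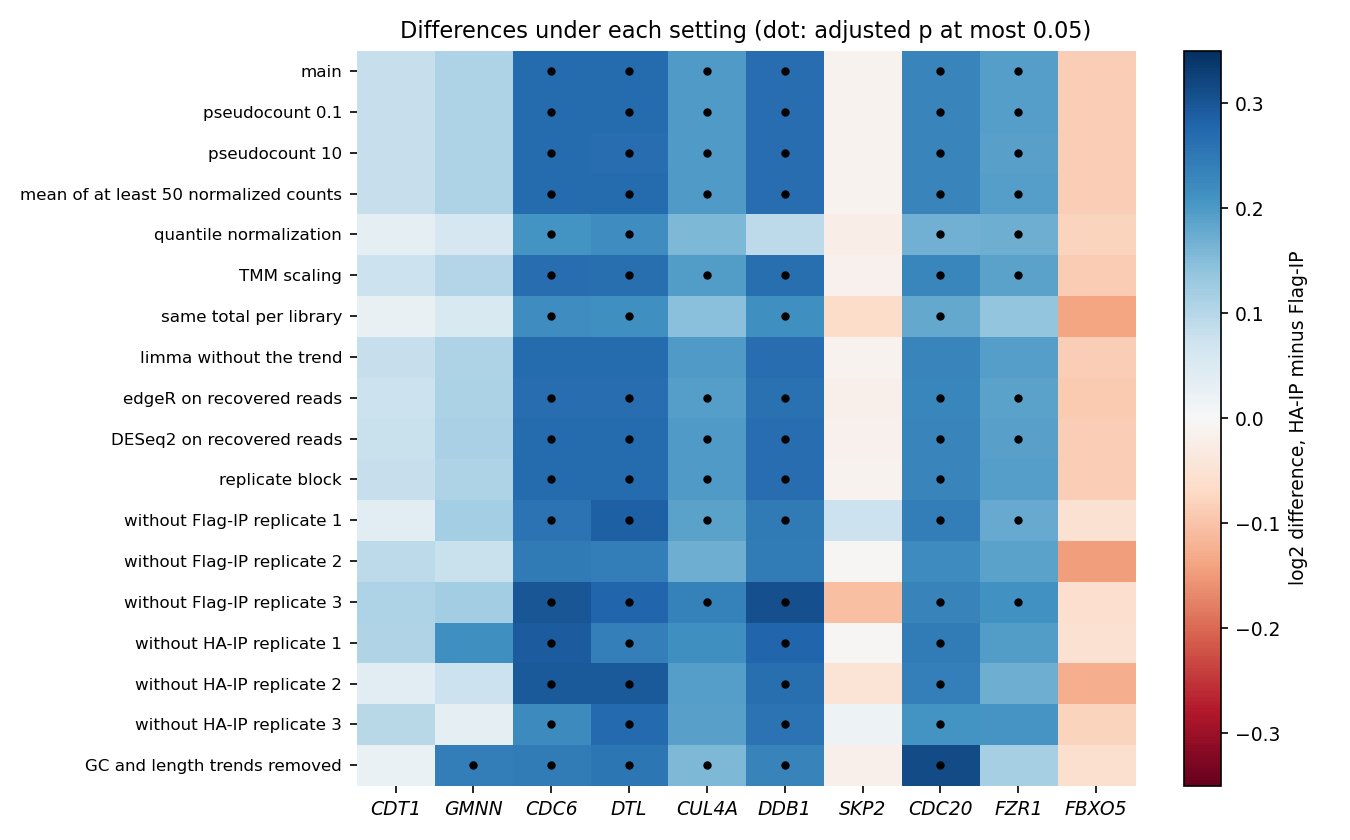
Log2 difference between HA-IPs and Flag-IPs (colour, blue above 0 and red below) of the 10 genes (x axis) under the main setting and 17 alternatives (y axis), with a dot where the adjusted p was at most 0.05. The signs of 9 genes hold throughout, SKP2 turns under 2 settings, and no dot remains without Flag-IP replicate 2 or without the trend in limma.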

How the data were processed

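RNA from 3 Flag-IPs and 3 HA-IPs was sequenced as paired reads of 150 bp after poly(A) selection. The authors trimmed reads (Trimmomatic 0.36), mapped them to GRCh38 (STAR 2.5.2b) and counted them per gene (featureCounts of Subread 1.5.2, by the submitters' processing notes). By their account, genes with fewer than 10 reads in at least 3 samples were excluded. Each listed gene had at least 10 reads in at least 3 libraries, so genes low in 1 group alone were kept. The deposited values are a normalized signal per gene and library, read counts divided by a DESeq2 size factor. The authors' fold change and adjusted p columns in that table were not used. Dividing by the value of 1 read gave whole reads for 100% of values (tolerance 0.01 of a read).

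All genes were tested in limma 3.58.1 (R 4.3.3) on log2(value + 1) with its mean-variance trend, two-sided, adjusted over 16834 genes. Since the deposited values are not raw counts, edgeR 4.0.16 and DESeq2 1.42.0 on recovered reads were alternatives, beside pseudocounts of 0.1 and 10, a mean of at least 50, TMM, quantile and equal-total scaling, limma without its trend, a replicate block, each library left out, and removal of GC and length trends (splines of 5 degrees of freedom; GENCODE release 44 covers 99.1% of genes). Ratios used exact permutation tests. The fits were tested on simulated data. The 10 genes, the pathway and marker lists and the named genes (all called genes of a pathway list, at most 6, and its highest and lowest; the 3 nearest profiles to CDT1 and GMNN) were chosen with earlier results of these data known. AURKB, MCM7, PCNA and CUL4B were named after their values were seen. Plots used matplotlib 3.10.9.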

Additional observations from a re-analysis of the deposited data

How the results depend on the processing

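Under 17 alternatives (for ratios, those that could apply), 9 of the 10 genes kept the sign of their difference. SKP2, at -0.012, ranged from -0.10 to 0.075 when 1 library was left out. The genes called among the 10 numbered 6, and 0 with limma without its trend (6 had an unadjusted p under 0.05). When a library was left out they numbered 0 to 6. The other alternatives gave 4 to 6. Of the 81 pathway genes, those higher in the HA-IPs numbered 6 under quantile normalization, 0 without the trend (18 at an unadjusted p under 0.05) and 0 to 16 with a library left out. Those higher in the Flag-IPs numbered 0 without the trend (11 at an unadjusted p under 0.05) and 6 to 13 with a library left out. Without Flag-IP replicate 2 they were 0 and 6. Over all genes, those higher in the HA-IPs fell from 975 to 471 with the same total per library and to 6 without the trend, and ranged from 103 (without Flag-IP replicate 2) to 1550 with a library left out. Those higher in the Flag-IPs were 182 without the trend instead of 1196, and 517 to 1509 with a library left out. The share higher in the HA-IPs, 44.9% of called genes, was 3.19% without the trend and 16.6 to 50.7% with a library left out. The same total per library moved the median of all genes to -0.057. The cause of these shifts was not tested, except that a fit without a library has fewer samples.

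The sources used here do not say whether replicate numbers pair the libraries. Same-numbered Flag-IPs and HA-IPs had correlations of their deviations of -0.16, 0.031 and -0.31 over 13141 genes. Those of differently numbered libraries ranged from -0.24 to 0.30. Deviations from the mean of 3 libraries cannot show whether a Flag-IP and an HA-IP came from the same cells. With the replicate number as a block, 752 genes were higher in the HA-IPs, 910 genes were higher in the Flag-IPs, and 5 of the 10 genes were called, FZR1 being lost (adjusted p = 0.0533 in limma). The GMNN to CDT1 ratio, at 0.027, ranged from -0.066 to 0.11 with a library left out and was 0.22 with GC and length trends removed. The design held 3 libraries a group from 1 line, with no input RNA analysed and no record of separate cultures.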
